A study of Mus musculus with 22 samples.

Results

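Interferon-stimulated and antigen processing genes were followed in the livers of mice given diclofenac or saline. The list holds 33 genes, and 31 of them had at least 1 probe set on the array that is annotated to that gene symbol alone, of 18194 genes with such a probe set. Isg15 shares its probe set with another annotated gene and was left out by this rule, and Ifi44 was not analysed here. A total of 30 of the 31 passed the filter on low signals at days 1 and 3 and 28 at day 14. Mx2 passed in neither model, and Ifit2 and Mx1 did not pass at day 14.

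The animals were male C57BL6 mice of 8 weeks. Diclofenac sodium, a nonsteroidal anti-inflammatory drug, was injected into the abdominal cavity at 30 mg/kg each day, and control mice received saline by the same route, so that every liver came from an injected animal. Livers were taken after 1, 3 or 14 days. The 22 arrays, 1 per liver, comprised 3 livers of either treatment on each of the first 2 time points and 5 of either treatment at day 14. The livers of different days came from different mice, and the arrays measure whole liver, in which fewer cells of a type and less RNA per cell cannot be told apart.

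Interferons are cytokines of the antiviral defence. Type I interferons bind a receptor that activates a complex with Stat2 and Irf9, which binds interferon-stimulated response elements in promoters, whereas the response to interferon gamma runs through gamma-activated sites. The genes switched on in this way include effectors that block viral translation and replication, guanylate-binding and immunity-related GTPases that attack vacuoles of intracellular pathogens, and the immunoproteasome and peptide transporter that prepare peptides for presentation on major histocompatibility complex class I. In the liver, hepatocytes, Kupffer cells and infiltrating leukocytes can all respond to interferon.

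The signals are Affymetrix array intensities on a linear scale that the authors had brought to a common level, and the number of arrays limits the precision. Array medians were 75.2 to 89.9. All 7 hepatocyte markers with a probe set were above the array's median in every liver. The summed signal of 9 Kupffer cell markers was 18780 to 45770 at days 1 and 3 and 5151 to 39850 at day 14. Neutrophil markers stood apart in a pair of diclofenac livers, with a summed signal of 25790 in replicate 2 of day 1 and 24440 in replicate 3 of day 14, against 797 to 3585 in the other diclofenac livers and 339.6 to 1160 in saline livers. Of 11 T and NK cell markers, Cd4, Ncr1 and Eomes were below the median of every array. The part of these cell types in the results was not tested.

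Promoter sequences from RefSeq (GRCm38.p6, 250 bases before the start to 50 after it) were found for 24 of the 31 genes. The core of an interferon-stimulated response element, searched as GAAA, any 2 bases and GAAA on both strands, was present in 14 of the 24, against 3.99% of all genes in the promoter table. The gamma-activated site TTCNNNGAA, which reads the same on both strands, was present in 8 of the 24, against 9.55% of all genes. Both were found in 5 and neither in 7, and overlapping matches were counted for each motif. All 5 GTPase genes with a promoter in the table held the first motif, whereas none of the 3 immunoproteasome genes and not Tap1 did. A match describes the letters only.

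The promoters of Igtp and Irgm2 are shown because these neighbouring genes on chromosome 11 moved together, those of Ifit1 and Ifit3 on chromosome 19 because they too moved together, and the stretch between the starts of Tap1 and Psmb9 on chromosome 17 because both genes are read from it in opposite directions. Each is the forward strand, 5′ to 3′, and capitals mark the motif matches. For the first 4 genes the 250 bases before the start are given.
Igtp, chr11:58199306-58199555: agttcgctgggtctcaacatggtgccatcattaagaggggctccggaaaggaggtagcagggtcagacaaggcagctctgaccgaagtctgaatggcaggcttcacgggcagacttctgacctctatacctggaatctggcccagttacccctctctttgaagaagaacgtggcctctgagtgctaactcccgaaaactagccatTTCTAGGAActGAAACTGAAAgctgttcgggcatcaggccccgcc
Irgm2, chr11:58214727-58214976: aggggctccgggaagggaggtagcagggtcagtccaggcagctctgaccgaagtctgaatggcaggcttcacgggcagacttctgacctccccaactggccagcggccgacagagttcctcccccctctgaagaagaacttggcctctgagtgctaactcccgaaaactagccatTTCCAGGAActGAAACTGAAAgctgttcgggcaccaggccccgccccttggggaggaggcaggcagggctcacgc
Ifit1, chr19:34640639-34640888: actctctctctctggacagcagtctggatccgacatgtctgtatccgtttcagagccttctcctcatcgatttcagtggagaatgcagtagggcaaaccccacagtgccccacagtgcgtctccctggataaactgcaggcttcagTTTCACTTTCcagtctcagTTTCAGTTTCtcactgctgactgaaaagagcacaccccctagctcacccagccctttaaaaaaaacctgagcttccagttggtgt
Ifit3, chr19:34583279-34583528: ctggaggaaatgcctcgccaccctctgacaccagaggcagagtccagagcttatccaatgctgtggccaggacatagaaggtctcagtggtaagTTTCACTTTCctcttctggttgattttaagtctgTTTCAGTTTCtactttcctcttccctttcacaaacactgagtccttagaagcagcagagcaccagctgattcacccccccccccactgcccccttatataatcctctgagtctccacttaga
Tap1 and Psmb9, chr17:34187331-34187555: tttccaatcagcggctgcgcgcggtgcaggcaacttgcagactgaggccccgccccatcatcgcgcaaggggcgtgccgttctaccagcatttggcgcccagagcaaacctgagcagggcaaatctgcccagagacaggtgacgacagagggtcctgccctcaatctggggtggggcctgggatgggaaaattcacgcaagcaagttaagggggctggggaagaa
Igtp and Irgm2 held 1 copy of each motif, the gamma-activated site directly before the response element, and an identical run of 55 bases. Ifit1 and Ifit3 held 2 copies of the response element each and no gamma-activated site, and the 225 bases between Tap1 and Psmb9 held neither motif.

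Diclofenac livers tended to higher signals of these genes, but by small steps, and no gene passed the test on a single day. At day 1 the log2 difference of diclofenac from saline was above 0 for 22 of 30 genes with a median of 0.17, at day 3 for 26 of 30 with a median of 0.29, and at day 14 for 20 of 28 with a median of 0.13, whereas the medians of all genes tested were 0.00, 0.01 and -0.01. The median of day 1 turned to -0.061 without diclofenac replicate 1, so that the day 1 tendency rested on that liver. With single livers left out, the median of day 3 ranged from 0.25 to 0.34. The median of day 14 fell to 0.017 without diclofenac replicate 5 and to 0.026 without saline replicate 1, and it was 0.22 without saline replicate 2 or diclofenac replicate 3 and 0.21 without diclofenac replicate 4. With limma and an adjusted p under 0.05, 0 of 30, 0 of 30 and 0 of 28 were called at days 1, 3 and 14, against 0%, 0.202% and 0% of all genes tested. At an unadjusted p under 0.05 the counts were 3, 8 and 3, all higher with diclofenac, against 13.0%, 10.8% and 10.8% of all genes in either direction. In the mean of the 3 within-day differences, which uses the same livers again, 1 of 30 genes was called, against 1.68% of all genes, and 11 of 30 had an unadjusted p under 0.05, all higher, against 18.5%.

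The livers themselves showed the day 3 pattern most clearly. All 3 diclofenac livers lay above all 3 saline livers for 13 of the 30 genes at day 3, against 10.8% of all genes, and below them for 0, against 9.21%. At day 1 the counts were 2 above, against 8.23%, and 0 below, against 8.10%. At day 14, with 5 livers on each side, 0 of 28 lay wholly above and 0 wholly below, against 2.18% and 1.60%. The methods' t-test was run on the same values, at an unadjusted p under 0.05 and more than 1.5-fold. It called 0 genes at day 1, against 1.46% of all genes, 3 at day 3 (Igtp, Irgm2 and Parp14), against 2.49%, and 1 at day 14 (Iigp1), against 2.39%. None of these passed after Benjamini-Hochberg adjustment.

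Values of other cells and of the arrays moved beside these differences, and their part was not tested. The summed Kupffer cell markers were 31970 to 45770 in diclofenac livers and 18780 to 30160 in saline livers of day 1, 27520 to 40130 against 23910 to 26150 at day 3, and 9077 to 39850 against 5151 to 13700 at day 14. The neutrophil sums were 1653 to 25790 against 689.1 to 1160 at day 1, 2121 to 3585 against 422.3 to 622.6 at day 3 and 797 to 24440 against 339.6 to 562 at day 14, without overlap on any day. Monocyte sums did not overlap at day 3, at 4976 to 6595 with diclofenac and 3570 to 4038 with saline, and those of stellate cells were lower without overlap at day 1, at 7696 to 9227 against 11170 to 13790. Control probe sets at the 3′ end of a transcript exceeded those at its 5′ end, a sign of RNA quality, by 0.69 to 0.81 (log2) in diclofenac arrays and by 0.55 to 0.71 in saline arrays of day 14, by 0.76 to 0.95 against 0.74 to 0.83 at day 3, and by 0.56 to 0.60 against 0.56 to 0.62 at day 1.

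**Figure D1:**
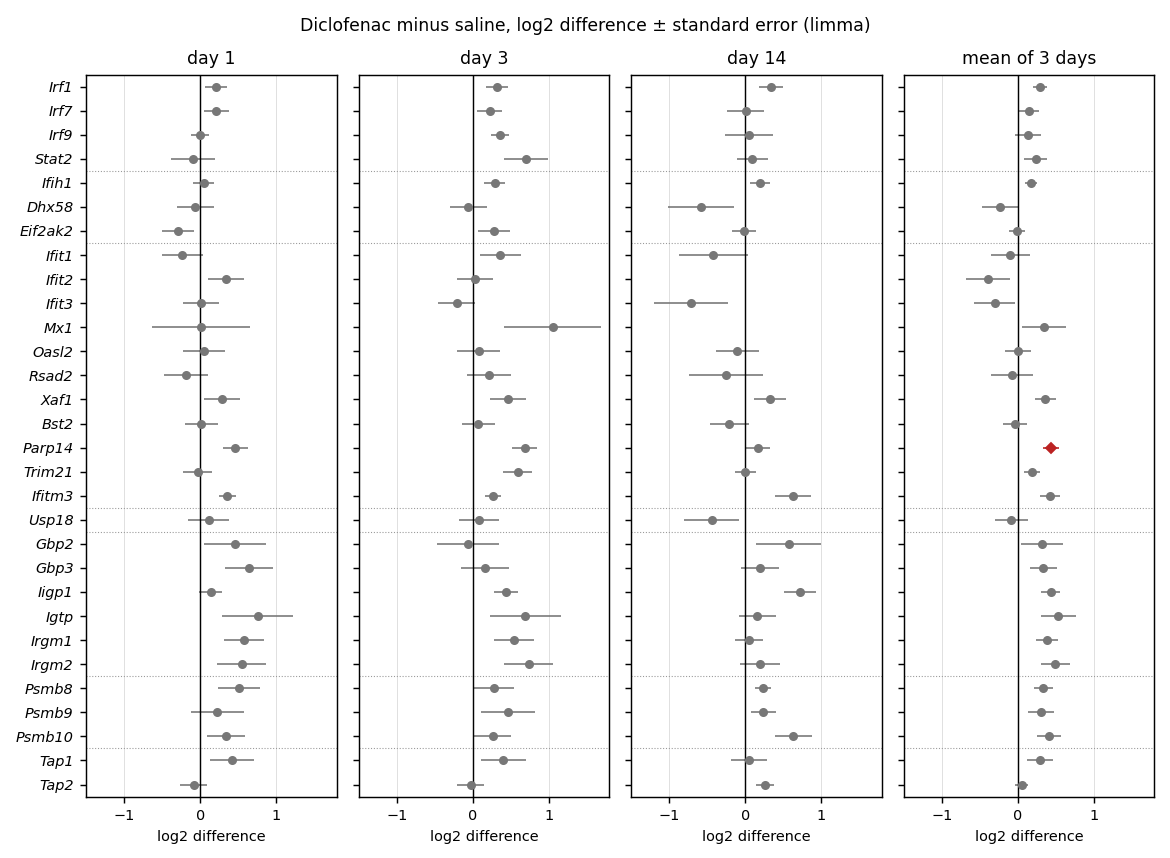
Log2 difference of diclofenac from saline (points) with its standard error from limma (bars) for 30 genes, by day and for the mean of the 3 days, in order of role. The red diamond marks Parp14, which was called with an adjusted p of 0.0338 in the mean of the 3 days; Ifit2 and Mx1 have no point at day 14, where they did not pass the filter.

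Parp14, an ADP-ribosyltransferase induced by interferon that lies on chromosome 16 of GRCm38 from 35831892 to 35871518, was the gene called in the mean of the 3 days. At day 1 its signal was 712.4, 537.4 and 634.7 in saline livers and 910.2, 764.4 and 908.8 in diclofenac livers. At day 3 it was 601.3, 577.3 and 436.5 with saline and 996.5, 869.8 and 728.2 with diclofenac. The groups did not overlap on either day. At day 14 it was 506.3, 727.5, 543.6, 530.4 and 504.8 with saline and 675.9, 701.0, 482.1, 513.5 and 806.5 with diclofenac, so that the groups overlapped, and the highest liver was treated with diclofenac and so was the lowest. The log2 differences were 0.46, 0.69 and 0.16 (exact permutation test, two-sided, p = 0.1, 0.1 and 0.413, where 0.1 is the smallest that 3 against 3 livers allow and 0.00794 the smallest of 5 against 5). The mean of the 3 days was 0.44 with a standard error of 0.10, or 1.35-fold, and an adjusted p of 0.0338 in limma. This call was lost in 12 of 31 alternatives, 10 of which leave out a single liver, with adjusted p from 0.00822 to 0.321 and log2 differences from 0.39 to 0.50. A second probe set of Parp14 did not pass the filter. The sign of the day 3 difference of Parp14, which was not called, turned under an alternative, whereas the signs of day 1, day 14 and the mean were kept.

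**Figure D2:**
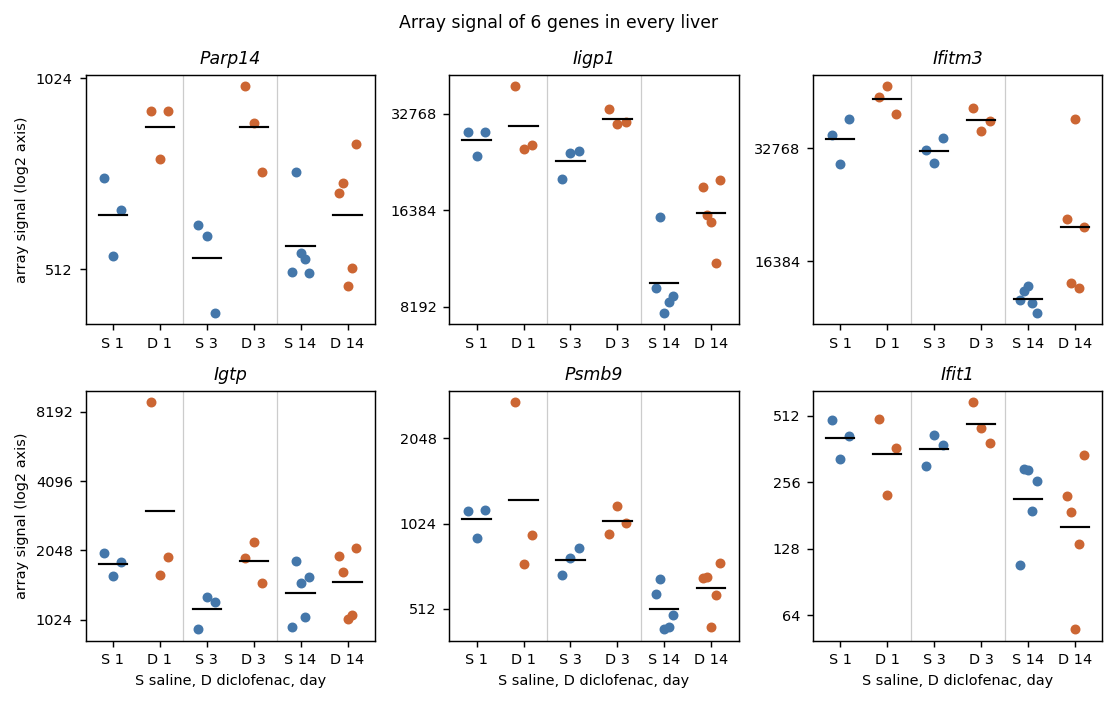
Array signal (log2 axis) of Parp14, Iigp1, Ifitm3, Igtp, Psmb9 and Ifit1 in every liver, saline in blue (S) and diclofenac in orange (D), by day; lines are means of the log2 signals. The diclofenac livers of day 3 lie above the saline livers for all but Ifit1, and 1 diclofenac liver of day 1 stands apart for Igtp at 9028 and Psmb9 at 2755.

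The interferon-inducible GTPases had the largest median difference of the role groups with more than 1 gene at day 1. Their mean log2 deviation from the saline livers of day 1 was 1.37, 0.11 and 0.08 in diclofenac livers. It was 0.11, -0.27 and 0.16 in the saline livers themselves, so that replicate 1 of the diclofenac livers alone was high. All 6 were above 0 at day 1 with a median of 0.56 on the log2 scale, 5 of 6 at day 3 with a median of 0.49, and all 6 at day 14 with a median of 0.20, and 0 were called. In the mean of the 3 days all 6 lay between 0.32 and 0.54, and 4 had an unadjusted p under 0.05, against 18.5% of all genes.

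Igtp, also named Irgm3, an immunity-related GTPase of vacuole and lipid droplet membranes, had a signal of 1988, 1579 and 1829 in saline livers of day 1 and of 9028, 1602 and 1909 in diclofenac livers. Only the first diclofenac liver was high, and the other two lay within the saline range. At day 3 the signal was 930.5, 1290 and 1221 with saline and 1897, 2220 and 1478 with diclofenac, without overlap. The log2 difference was 0.76 at day 1, 0.70 at day 3 and 0.16 at day 14 (standard errors 0.47, 0.47 and 0.24, adjusted p = 0.512, 0.631 and 0.827, limma). Irgm2, its neighbour and paralogue, behaved alike in the same livers, with 5224 in the first diclofenac liver of day 1 and 1538 and 2102 in the others, against 1562 to 1888 with saline. At day 3 it was 801.0, 862.6 and 1153 with saline and 1568, 1636 and 1435 with diclofenac, again without overlap. Its log2 differences were 0.55, 0.74 and 0.20 (adjusted p = 0.493, 0.430 and 0.802). Irgm1, a regulatory member of the same family, had differences of 0.58, 0.54 and 0.05 and 3873 as its highest signal, in the same diclofenac liver of day 1.

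Iigp1 is an effector GTPase of the family. Its signal was 28740, 24210 and 28840 with saline and 40110, 25460 and 26290 with diclofenac at day 1, where the groups overlapped, and 20530, 24770 and 25140 against 33900, 30390 and 30880 at day 3, where they did not. At day 14 it was 9331, 15600, 7818, 8483 and 8840 in saline livers and 19340, 15790, 15040, 11240 and 20340 in diclofenac livers. The 5 diclofenac livers of day 14 lay above 4 of the 5 saline livers, and saline replicate 2 lay among them. The differences of 0.14, 0.44 and 0.72 (standard errors 0.15, 0.15 and 0.21) were not called (adjusted p = 0.723, 0.305 and 0.253), nor was their mean of 0.43 (adjusted p = 0.0749). The guanylate-binding proteins Gbp2 and Gbp3 had means of 0.32 and 0.34 with standard errors of 0.28 and 0.18, and Gbp2 ranged from 172.8 to 535.1 among the diclofenac livers of day 3 alone.

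The immunoproteasome, whose subunits replace those of the standard proteasome and change which peptides are cut, was above 0 in all 3 subunits on all 3 days, with medians of 0.34, 0.28 and 0.24 and 0 called. Psmb8 had 1276, 889.3 and 1284 with saline and 2842, 1047 and 1415 with diclofenac at day 1, 903.7, 884.1 and 899.3 against 1028, 1178 and 1057 at day 3, and 569.7 to 628.7 against 601.4 to 843.1 at day 14. The groups overlapped at days 1 and 14 and not at day 3, and the log2 differences were 0.51, 0.28 and 0.23 (adjusted p = 0.449, 0.762 and 0.474). A second probe set of Psmb8, of lower signal, put the day 3 value at -0.12, so that its direction there depended on the probe set. Psmb9 had differences of 0.23, 0.46 and 0.24, with 2755 in the first diclofenac liver of day 1 and 738.6 and 932.4 in the others, of which one lay below every saline liver. Psmb10 had its largest difference at day 14, 0.63 (standard error 0.24, adjusted p = 0.382), where it was 442.3, 630.6, 610.1, 485.5 and 829.0 with saline and 941.1, 624.6, 1473, 684.0 and 1043 with diclofenac.

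The peptide transporter moves these peptides into the endoplasmic reticulum. Its first subunit, Tap1, had 625.6, 544.5 and 680.5 with saline and 1565, 506.3 and 700.7 with diclofenac at day 1, and 545.0, 524.8 and 489.9 against 640.7, 670.2 and 752.4 at day 3. The day 1 livers overlapped and the day 3 livers did not. The differences were 0.42, 0.40 and 0.05 (adjusted p = 0.560, 0.666 and 0.946), so that Tap1 and its divergent neighbour Psmb9 shared the high liver of day 1 and the separation at day 3. Tap2, the other subunit, lay at -0.08 and -0.03 at days 1 and 3 and at 0.26 at day 14 (adjusted p = 0.466).

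The transcription factors were above 0 in 2 of 4 genes at day 1 with a median of 0.10, in 4 of 4 at day 3 with 0.34 and in 4 of 4 at day 14 with 0.07, and 0 were called. Irf1, which interferon gamma induces, had differences of 0.21, 0.32 and 0.34, with 1228, 1466 and 1209 in saline livers and 1458, 1748 and 1668 in diclofenac livers of day 3, where 1 diclofenac liver lay among the saline livers. Its mean over the 3 days was 0.29 with a standard error of 0.10 (adjusted p = 0.125). Irf9, the DNA-binding subunit of the complex with Stat2, was at -0.00 at day 1 and at 0.36 at day 3, where 661.9, 749.3 and 790.5 with saline stood against 994.6, 877.1 and 944.8 with diclofenac without overlap (adjusted p = 0.301). Stat2 had 0.70 at day 3 (adjusted p = 0.395), a value that a second probe set put at 0.09. Irf7, which amplifies the type I interferon response, was at 0.21, 0.22 and 0.01.

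The antiviral effectors were split. They were above 0 in 8 of 11 genes at day 1 with a median of 0.01 and in 10 of 11 at day 3 with a median of 0.27, and 0 were called on either day. Ifitm3, a membrane protein that blocks viral fusion, had 35550, 29690 and 39210 with saline and 44880, 48010 and 40510 with diclofenac at day 1, and 32360, 29890 and 34800 against 41980, 36300 and 38700 at day 3, without overlap on either day. At day 14 it was 12940, 13660, 14040, 12670 and 11930 against 21260, 14370, 39150, 13880 and 20200, where 4 of the 5 diclofenac livers lay above all saline livers. The log2 differences reached 0.36 ± 0.11, 0.27 ± 0.11 and 0.63 ± 0.24 (standard error) with adjusted p of 0.293, 0.381 and 0.382, and the mean of 0.42 had an adjusted p of 0.105. Xaf1, a pro-apoptotic gene induced by interferon, had 0.29, 0.46 and 0.33, of which a second probe set put the day 14 value at -0.35. Trim21, a cytosolic antibody receptor and ubiquitin ligase, had -0.03, 0.60 and 0.00, of which a second probe set put the day 3 value at -0.04.

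Other effectors lay on both sides of 0. Ifit1, which binds viral RNA that lacks a host cap, had 489.7, 327.0 and 413.1 with saline and 496.5, 223.5 and 367.4 with diclofenac at day 1, 304.2, 416.9 and 377.8 against 590.5, 449.0 and 385.7 at day 3, and 107.4, 293.8, 289.3, 190.5 and 259.1 against 222.4, 187.5, 55.22, 134.7 and 341.5 at day 14. The groups overlapped on every day and the differences were -0.23, 0.36 and -0.42 (adjusted p = 0.739, 0.668 and 0.744). Ifit3 was at 0.01, -0.21 and -0.71, Rsad2, also named viperin, at -0.19, 0.21 and -0.25, and Oasl2 at 0.05, 0.08 and -0.10. A pair of further probe sets put Rsad2 at 0.067 and 0.10 at day 1, so that its direction there depended on the probe set. Bst2, or tetherin, which holds budding virus at the cell surface, was at 0.01, 0.07 and -0.21. Usp18, which removes Isg15 from proteins and dampens interferon receptor signalling, was at 0.11, 0.08 and -0.44. None of these was called on any day. At day 14, 4 of 9 effectors were above 0, with a median of -0.10. Ifit2, which did not pass the filter at day 14, was at 0.34 and 0.03 at days 1 and 3. Mx1, near the filter limit, was at 0.01 and 1.05 with standard errors of 0.64. Its saline signals of day 3 were 49.71, 13.05 and 59.79, below the array medians of 75.3 to 79.9. Mx2 was not tested, at 8.64 to 122.6 over the 22 livers.

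The RNA sensors Ifih1 (also named MDA5) and Dhx58 (LGP2) were not called on any day. Ifih1 was at 0.05, 0.29 and 0.19, with 3 diclofenac livers above 3 saline livers at day 3 (1780, 1615 and 1520 against 1388, 1277 and 1348). Dhx58 was at -0.07, -0.06 and -0.58, with 43.52 as its lowest signal, in the diclofenac liver of day 14 that also had the lowest Ifit1. A second probe set of Dhx58, of lower signal, put the day 1 value at 0.18. The kinase Eif2ak2, or PKR, which stops translation on viral RNA, was at -0.30, 0.28 and -0.01, and its other probe sets at day 1 were at 0.30 and 0.59, so that its direction depended on the probe set.

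**Figure D3:**
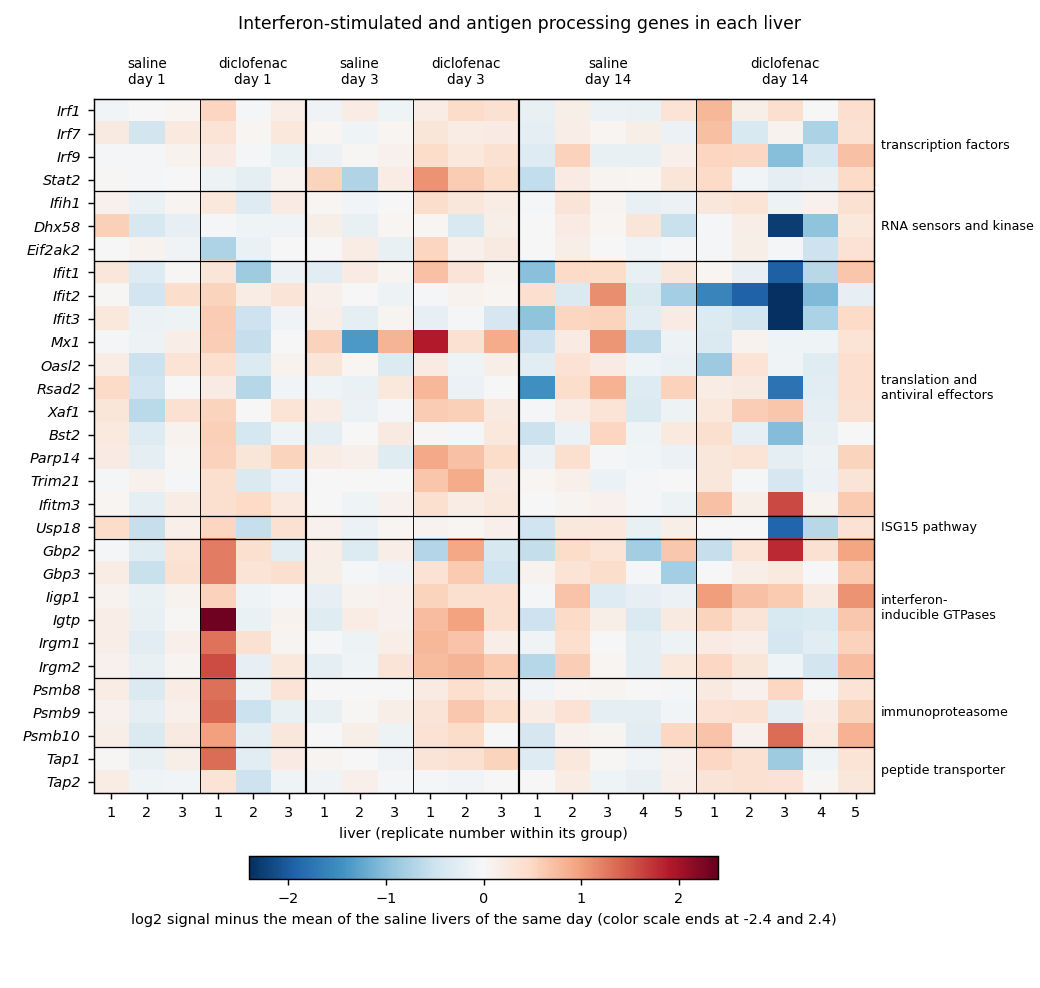
Log2 signal of 30 genes (rows, by role) in each of 22 livers (columns), minus the mean of the saline livers of the same day; red is higher and blue lower. Replicate 1 of the diclofenac group of day 1 is red for 27 of 30 genes, and replicate 3 of day 14 is blue for Ifit1, Ifit3, Rsad2 and Usp18 and red for Gbp2, Ifitm3 and Psmb10.

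Many of these genes were high or low in the same livers. The level of each liver was taken as the mean over the 30 genes of the log2 signal minus the mean of the saline livers of its day. At day 1 it was 0.65, -0.17 and 0.09 in diclofenac livers and 0.15, -0.26 and 0.11 in saline livers, and at day 3 it was 0.42, 0.35 and 0.20 against 0.03, -0.08 and 0.05. The diclofenac livers of day 3 were thus all above the saline livers, while at day 1 replicate 1 alone was high. That liver was the highest of its group for 27 of 30 genes, with 1.37 for the GTPases and 1.23 for the immunoproteasome. Without it the median difference at day 1 was -0.061 in place of 0.17. Saline replicate 2 of day 1 was the lowest of its group for 27 of 30 genes.

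At day 14 the level was 0.18, 0.10, -0.37, -0.24 and 0.47 in diclofenac livers and -0.29, 0.27, 0.19, -0.18 and 0.01 in saline livers, so that both groups spread widely and overlapped. Diclofenac replicate 5 was the highest of its group for 19 of 30 genes and replicate 3 the lowest for 16. Replicate 3 was low for the antiviral effectors at -0.80 and for Usp18 at -1.90, but it was at 0.30 for the GTPases and at 0.54 for the immunoproteasome. It was also the liver of day 14 with the highest summed markers of neutrophils and of Kupffer cells, 24440 and 39850. The same held for monocytes (7985), plasmacytoid dendritic cells (1472), endothelial cells (8731), stellate cells (12520) and cholangiocytes (2358). It did not hold for hepatocytes, T and NK cells or B and plasma cells. At day 1 the liver with the highest neutrophil markers, diclofenac replicate 2 at 25790, was the lowest of its group for 25 of 30 genes, and replicate 1, high for these genes, had 1653 and the highest Kupffer cell sum of its group at 45770. When both livers highest in neutrophil markers were left out, a choice made after seeing the data, 6 of 30 genes were called in the mean of the 3 days (Ifih1, Ifitm3, Iigp1, Parp14, Psmb8 and Tap1), against 2.74% of all genes. These livers were the lowest of their groups for 25 and 16 of 30 genes, and leaving out the lowest diclofenac liver raises a gene's difference by construction. This does not hold for all of the called genes. Ifitm3 was highest of its group in both livers, at 48010 and 39150, and Psmb8 was highest in replicate 3 of day 14, at 843.1. No conclusion about these genes or about neutrophils is drawn from the count.

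**Figure D4:**
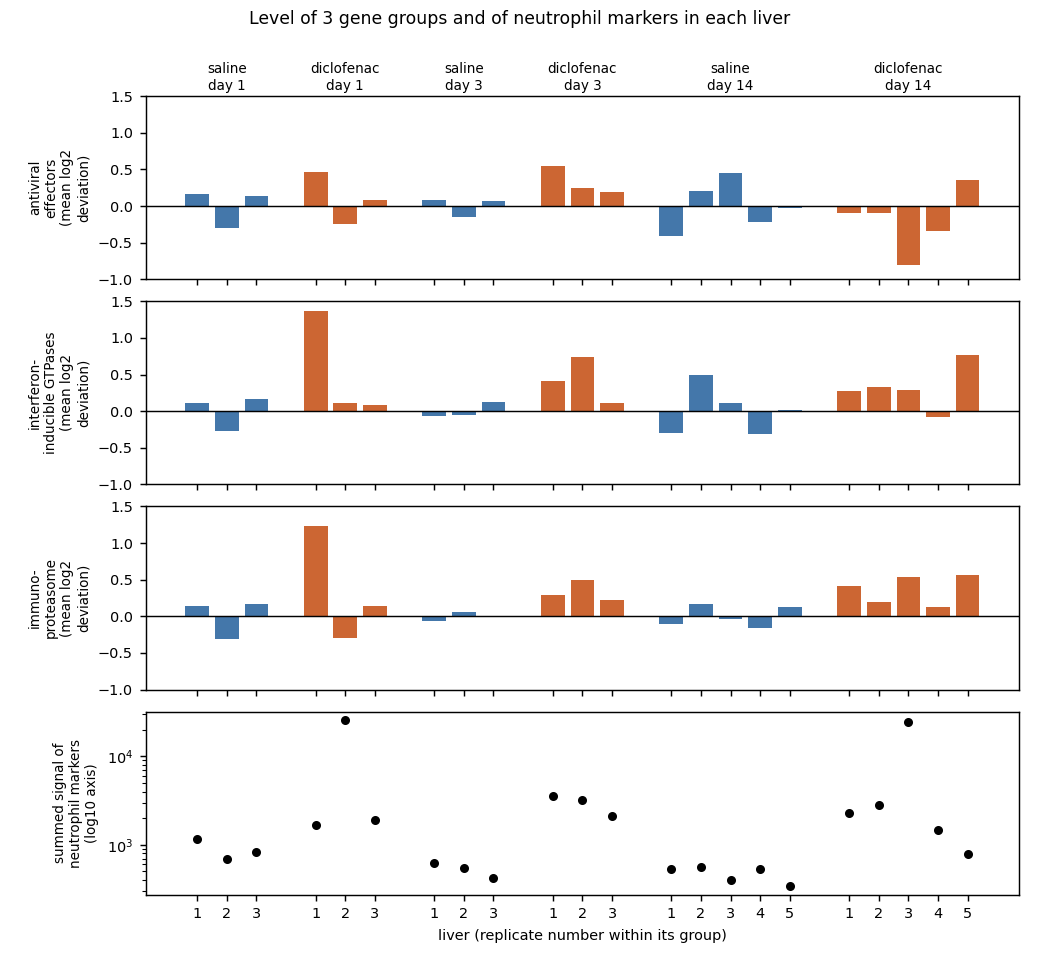
Mean log2 deviation from the saline livers of the same day for the antiviral effectors, the GTPases and the immunoproteasome in each liver (bars, saline blue, diclofenac orange), and the summed signal of 9 neutrophil markers (points, log10 axis). The bars of diclofenac day 1 replicate 1 reach 1.37 and 1.23 for the GTPases and the immunoproteasome while its neutrophil sum is 1653; the sums of 25790 and 24440 belong to replicate 2 of day 1 and replicate 3 of day 14.

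Deviations from the group means over the 22 livers were also compared between genes, as a description, since all values come from the same arrays. The median correlation over the 435 pairs was 0.38, against 0.00 over all pairs of genes tested, and 36.3% of pairs were above 0.5, against 6.44%. Ifit1 ran with Ifit3 at r = 0.95, with Rsad2 at 0.92 and with Usp18 at 0.91. Igtp ran with Irgm2 at 0.93, with Psmb9 at 0.88, with Irgm1 at 0.86 and with Tap1 at 0.85, and Psmb9 with Tap1 at 0.83. These values may lean on single livers, and the correlations were not computed again with single livers left out. Igtp, Irgm2, Psmb9, Irgm1 and Tap1 were all highest in diclofenac replicate 1 of day 1. Ifit1, Ifit3, Rsad2 and Usp18 were all lowest in diclofenac replicate 3 of day 14. Ifitm3 and Eif2ak2 stood outside, with mean correlations of -0.04 and 0.03 with the other genes.

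The effects of diclofenac were compared between days by interaction terms in limma. For day 3 minus day 1, 0 of 30 genes were called, against 0% of all genes, and 1 had an unadjusted p under 0.05, against 5.39%, which was Trim21 at 0.63. For day 14 minus the mean of days 1 and 3, 0 of 30 were called, against 0.0225%, and 1 had an unadjusted p under 0.05, against 6.45%, which was Ifit2, lower. Ifit2 entered this comparison through its signals of days 1 and 3 and did not pass the filter at day 14, so that no size is given. In this second comparison 7 of 30 were above 0 and the median was -0.21, against 47.9% and -0.015 for all genes, and the median moved to -0.12 without diclofenac day 1 replicate 1, -0.13 without saline day 1 replicate 2 or diclofenac day 14 replicate 3 and -0.33 without diclofenac day 14 replicate 1. No change of the diclofenac effect with time was thus called for any of these genes.

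More of these genes were called between days within the saline livers. In saline livers of day 14 against the mean of days 1 and 3, 17 of 30 genes were called, against 28.4% of all genes, 16 lower and 1 higher, with a median of -0.59 against -0.06 for all genes (-0.70 and -0.16 after centring each array on its median). Xaf1 fell by 1.82 on the log2 scale (adjusted p = 8.6e-07, limma), from 350.7 to 711.8 at days 1 and 3 to 107.1 to 169.7 at day 14. Ifit2 was called lower but had passed the filter through days 1 and 3 alone, with 24.24 to 92.66 in the saline livers of day 14, whose array medians were 77.1 to 89.9, so that no size is given. The log2 difference was -1.64 for Psmb10, -1.44 for Gbp2, -1.41 for Gbp3, -1.38 for Iigp1 and -1.36 for Ifitm3. It was -1.07 for Bst2, -0.90 for Tap2, -0.84 for Oasl2, -0.81 for Psmb9, -0.75 for Psmb8, -0.59 for Ifih1 and for Irf7, -0.56 for Irf1 and -0.42 for Trim21. Stat2 rose by 0.86 (adjusted p = 0.00417), whereas Igtp at -0.09, Parp14 at -0.05 and Rsad2 at 0.31 were not called. All 3 immunoproteasome genes fell, and 3 of 6 GTPases.

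Other values moved with this difference. Of the Kupffer cell markers 8 of 9 were called lower and 0 higher, with summed signals of 5151 to 13700 in saline livers of day 14 against 18780 to 30160 at day 1 and 23910 to 26150 at day 3. The 7 hepatocyte markers were all called higher. The mean log2 signal of the 18S control probe sets was 15.18 to 15.78 in saline arrays of day 14, 11.76 to 12.41 at day 1 and 14.54 to 14.76 at day 3, so that day and array processing cannot be told apart. Between saline livers of days 3 and 1, 0 of 30 genes were called in limma, against 0.217% of all genes, and 3 had an unadjusted p under 0.05, against 10.4%, namely Irf1, Irgm2 and Trim21, all lower at day 3. The median was -0.22, against -0.04 for all genes, and 4 of 30 were above 0. It was -0.12 without saline day 1 replicate 1 and -0.33 without saline day 1 replicate 2.

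**Figure D5:**
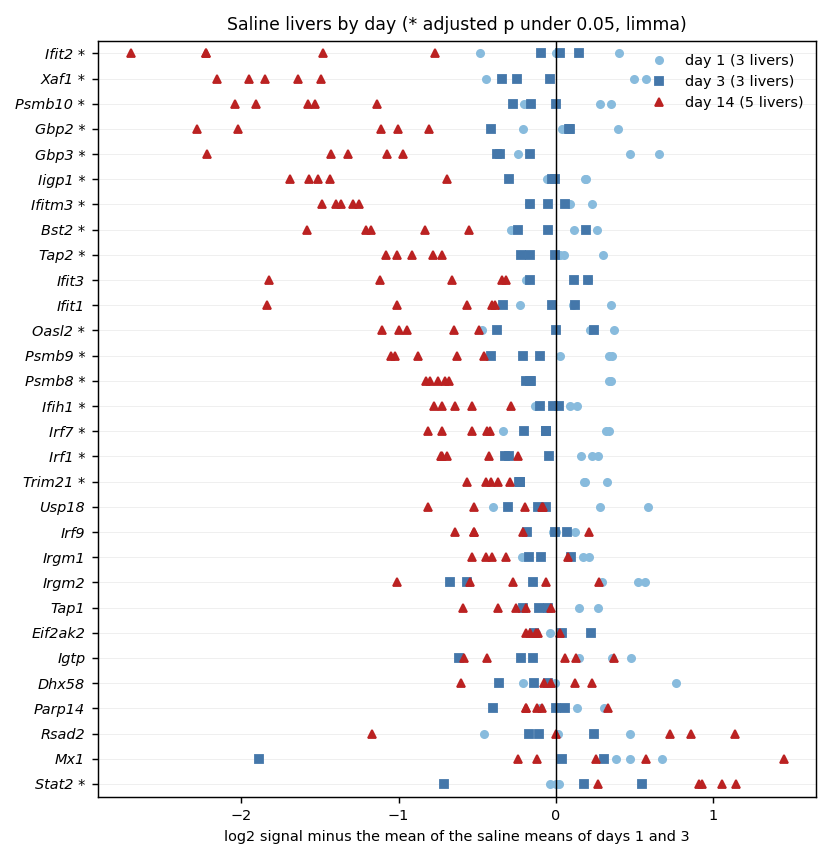
Log2 signal of 30 genes in each saline liver, minus the mean of the saline means of days 1 and 3, for day 1 (circles), day 3 (squares) and day 14 (triangles). The 17 genes with an asterisk passed the test of day 14 against days 1 and 3; of the 16 that were lower, all but Irf1 have their triangles left of every earlier saline liver, as do Ifit1 and Ifit3, which did not pass.

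Other genes of the pathway were read from lists written with earlier results of these data known. Of the interferons and the interleukins that induce interferon gamma, 8 of 12 had a probe set and 5 were tested at days 1 and 3, and 0 were called in the mean of the 3 days or on any day. Interleukin 18 and Ifna1, those with the smallest unadjusted p at day 14, were at 0.24 and 0.31 there. Il12a, a subunit of interleukin 12 that is named here after its values were seen, was higher at day 1 but not called (adjusted p = 0.304, limma). It had 72.41, 24.77 and 46.6 in saline and 118.8, 140.4 and 105.2 in diclofenac livers. The saline values were all below the medians of their arrays. Il12a passed the filter mainly through diclofenac livers, so that no size is given. Of 14 receptors and signal transducers tested, 1 was called in the mean of the 3 days, against 1.68% of all genes, Nlrc5, the transactivator of class I genes, which rose by 0.41 (standard error 0.10, adjusted p = 0.0373). Of the signal inhibitors 0 of 6 were called. The smallest adjusted p among these inhibitors in the mean of the 3 days was 0.0619 (limma). Socs3, an inhibitor of cytokine receptors, was at 2.32 at day 14 (adjusted p = 0.356), and Ptpn6, a phosphatase, at -0.22. The Socs3 signals of day 14 were 4247, 1107, 24010, 603.6 and 2620 with diclofenac and 217.5 to 1074 with saline. The highest was that of replicate 3, the liver of day 14 with the highest neutrophil markers.

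Of 11 nucleic acid sensors tested in the mean of the 3 days, 1 was called higher, again against 1.68% of all genes. This was Sting1, the adaptor of cytosolic DNA sensing (adjusted p = 0.0316, limma). Its saline signals were 38.44, 29.89 and 63.46 at day 1 and 21.1, 66.8 and 46.82 at day 3, all below the medians of their arrays. Sting1 thus passed the filter mainly through diclofenac livers, where it was high. No size is given, and no conclusion is drawn from its call. Of 48 other interferon-stimulated genes, 3 were called in the mean of the 3 days, against the same 1.68%, all higher: Ly6e at 0.89 (adjusted p = 0.00808), Herc6, the Isg15 ligase of the mouse, at 0.72 (0.0177) and Ifitm2, a relative of Ifitm3, at 0.69 (0.0164). The median of these 48 was 0.15, with 35 above 0. Of 20 other antigen processing genes, 1 was called, against 1.68%, Tapbp, or tapasin, which loads peptides onto class I molecules, at 0.33 (0.0466), and 18 were above 0 with a median of 0.13. None of these lists had a gene called at days 1, 3 or 14 alone. In the same mean, 3 of 7 neutrophil markers tested were called higher (Prtn3, S100a8 and S100a9), with 0 lower. Of 5 monocyte markers 1 was called, higher, and the list had a median of 0.51 with Chil3 at 4.98. Among 6 endothelial cell markers 1 was called lower, and among 5 stellate cell markers 1 was called lower. The Kupffer cell markers were above 0 in 9 of 9, with 0 called and 7 at an unadjusted p under 0.05.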

How the data were processed

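Liver RNA of 22 mice was hybridised to Affymetrix Mouse 430 2.0 arrays. The authors processed the scans with MAS5 and deposited 1 linear signal intensity per probe set and liver, scaled to a common mean of 500.0 once 2% was trimmed from either end. No detection calls or scan dates were used here. Groups come from the labels.

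Intensities were taken to log2 with no offset. Of the probe sets with 1 gene symbol, that of highest mean was kept per gene. A gene was tested where 3 or more arrays of a model had it over their median, 12884 at days 1 and 3, 11884 at day 14 and 13340 over all livers. Models were fitted in limma 3.58.1 (R 4.3.3, moderated variances with trend) for days 1 and 3, for day 14, and for all 22 livers in the comparisons that span them, two-sided with Benjamini-Hochberg adjustment over all genes tested and a threshold of 0.05. The procedure was tested on simulated data. Alternatives changed the filter, scaling, probe sets, model, weights, replicate block, test or the livers used. Every gene of the list with a probe set is named, with up to 4 called genes of each other list. The genes and lists were chosen with earlier results of these data known. Labels state groups of 5 and the methods 6, and the arrays used here are fewer at days 1 and 3. Nothing but separate animals is stated for replicates, so p-values measure the spread between these livers. Python 3.11.15, pandas 2.3.3, numpy 2.4.6 and matplotlib 3.10.9 were used for motifs and figures.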

Additional observations from a re-analysis of the deposited data

Results flagged for a closer look

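Of 62 groups of 5 livers examined, 1 per gene and treatment at day 14, 4 held a liver whose gap to the nearest other liver exceeded Dixon's limit, and chance gives about 1 in 20 groups. Stat2 was 196.4 in saline replicate 1, against 306.8 to 361.3 in the other saline livers of day 14. Saline replicate 2 was high for Iigp1 at 15600, against 7818 to 9331, and for Parp14 at 727.5, against 504.8 to 543.6. Tap2 was 250.7 in diclofenac replicate 4, against 296.5 to 313.7.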

How the results depend on the processing

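No alternative called any of the 30 genes at day 1. At day 3 the count called rose from 0 to 1 when each day had its own model (Irgm2), to 1 with array weights (Parp14) and to 3 with the methods' t-test unadjusted, and at day 14 to 1 with that t-test (Iigp1). Leaving out the 2 livers highest in neutrophil markers was chosen after seeing the data. Both livers were the lowest of their groups for most of these genes. This choice left the counts of days 1, 3 and 14 at 0. In the mean of the 3 days the count of 1 became 6 with it, and 0 with median centring and with probe sets averaged per gene. With single livers left out it ranged from 0 to 3: it was 0 without saline day 1 replicates 2 or 3, diclofenac day 1 replicate 3, saline day 3 replicate 3, diclofenac day 3 replicates 1 or 2, or saline day 14 replicates 1, 3, 4 or 5, 2 without saline day 14 replicate 2 or diclofenac day 14 replicate 4 (Iigp1 and Parp14), and 3 without diclofenac day 14 replicate 3 (Ifitm3, Iigp1 and Parp14). In saline livers of day 3 against day 1 it ranged from 0 to 1, the latter without diclofenac day 1 replicate 1. The median log2 difference of the genes ranged from -0.061 to 0.30 at day 1 with single livers left out, below 0 without diclofenac replicate 1 alone, and from 0.017 to 0.22 at day 14. The median of day 3 minus day 1, 0.06, turned to -0.0074 with median centring, -0.023 with array weights and -0.10 without the 2 neutrophil-rich livers, and ranged from -0.10 to 0.31 with single livers left out. The cause was not tested. With single livers left out, 15 to 19 genes were called in the saline comparison of day 14. Replicate numbers did not pair the livers, since 1 of 11 same-numbered pairs had a correlation of deviations over 0.1, and with a replicate block the counts were 0, 0, 0 and 1 at days 1, 3, 14 and in their mean. Over single genes, no called direction turned, 29 values lost a call and 15 gained one, while uncalled signs changed for 20 of 30 genes at day 1, 9 of 30 at day 3, 12 of 28 at day 14 and 8 of 30 in the mean.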
